A study of Mus musculus with 32 samples.

Results

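Mitotic and cell cycle genes were followed across donor T cells of a mouse transplantation study. The set held 53 genes, chosen by symbol for their place in the cell cycle, and all 53 were found among the 16741 genes of the deposited expression table. T cells came from C57Bl6 donors, and recipients with graft-versus-host disease (GVHD, the attack of donor T cells on the host) were Balb/c mice, a pairing with a major histocompatibility mismatch. CD4 and CD8 conventional T cells and regulatory T cells (Treg, suppressors of other T cells) were sorted from spleen and lymph nodes and profiled by bulk RNA sequencing in 31 libraries. The pretransplant groups, called day 0, had 2 libraries each of CD4, CD8 and Treg. Syngeneic recipients, labelled as untreated controls, had 3 libraries each of CD4 and CD8. Allogeneic recipients with untreated GVHD had 4 libraries each of CD4 and CD8. Treg-treated recipients with GVHD had also received Treg cells on day 0, and gave 4 libraries each of CD4 and CD8 and 3 of Treg. Sample titles place the post-transplant libraries at day 6, whereas the series design text says day 8. The labels name no age or sex of the animals and no transgene, do not say whether animals were pooled, and do not name the recipient strain of the syngeneic arm. Libraries are named here by the prefix and number in their titles (JL019-1, JL027-2), and the values of a group are listed in that order, JL019 before JL027. Nothing in the labels states that the libraries of a group came from separate animals, so p-values measure the spread between libraries, which may be partly technical.

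A resting T cell is held before DNA replication. D-type cyclins with Cdk4 and Cdk6, then E cyclins with Cdk2, inactivate the retinoblastoma protein and release E2F factors, which switch on the genes of DNA synthesis. A-type and B-type cyclins with Cdk1 then drive mitosis, and many genes of this later phase are repressed in resting cells by the DREAM complex and activated in dividing cells by B-Myb and FoxM1 through CHR elements (TTTGAA or its variant form TTCGAA) and CCAAT boxes in their promoters. Activated T cells divide quickly, and transcripts of this programme are commonly used as a reading of proliferation. In a bulk library, a lower value can come from fewer cells in cycle or from less RNA per cell, and the 2 cannot be told apart.

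Promoters of mitotic members, of a D cyclin and of a CDK inhibitor are shown to set the CHR and CCAAT letters beside the genes whose values are described further on. Each line gives the 150 bases before the start used for a RefSeq promoter window, 5′ to 3′ on the gene's own strand, on GRCm38.p6. For Mki67 and Top2a, both on the minus strand, this start lies inside the RefSeq gene span, which ends at 135716450 and 99024199. Their last printed bases, with the E2F match of Mki67, therefore lie within the gene. Capitals mark matches on either strand to a CHR, a CCAAT box or an E2F site, so that a CHR can also read TTCAAA and a CCAAT box can also read ATTGG. The E2F sites searched were the sequence TTCCCGC, its variant spelled TTCGCGC, the further variant spelled TTGGCGC, and finally the variant spelled TTGCCGC, each on both strands, and an E2F match may overlap a CCAAT box.
Cdk1, chr10:69352913-69353062, minus strand: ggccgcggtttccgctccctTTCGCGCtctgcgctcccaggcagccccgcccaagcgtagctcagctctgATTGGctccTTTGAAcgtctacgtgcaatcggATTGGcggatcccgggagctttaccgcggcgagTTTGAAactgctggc
Ube2c, chr2:164769779-164769928, plus strand: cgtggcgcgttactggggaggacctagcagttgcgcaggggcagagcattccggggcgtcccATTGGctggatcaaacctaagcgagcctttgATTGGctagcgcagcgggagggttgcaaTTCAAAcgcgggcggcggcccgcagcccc
Top2a, chr11:99024190-99024339, minus strand: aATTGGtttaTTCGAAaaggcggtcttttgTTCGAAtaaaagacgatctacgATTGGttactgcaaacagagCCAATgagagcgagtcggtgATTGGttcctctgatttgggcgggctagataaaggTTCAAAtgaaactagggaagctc
Mki67, chr7:135716380-135716529, minus strand: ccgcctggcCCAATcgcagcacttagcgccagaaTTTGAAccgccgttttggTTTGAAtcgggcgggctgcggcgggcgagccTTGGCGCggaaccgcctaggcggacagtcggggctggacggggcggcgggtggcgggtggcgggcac
Cdc20, chr4:118437344-118437493, minus strand: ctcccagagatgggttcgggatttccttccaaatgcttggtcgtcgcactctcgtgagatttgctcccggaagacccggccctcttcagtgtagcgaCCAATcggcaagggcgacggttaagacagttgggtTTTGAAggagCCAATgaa
Ccnb1, chr13:100786487-100786636, minus strand: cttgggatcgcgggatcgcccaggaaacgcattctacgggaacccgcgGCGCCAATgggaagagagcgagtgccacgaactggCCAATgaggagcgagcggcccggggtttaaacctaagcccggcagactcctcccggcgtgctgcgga
Ccnd3, chr17:47504901-47505050, plus strand: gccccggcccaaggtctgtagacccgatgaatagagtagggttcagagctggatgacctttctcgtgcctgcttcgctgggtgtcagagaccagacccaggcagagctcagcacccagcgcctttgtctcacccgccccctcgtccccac
Cdkn2c, chr4:109666757-109666906, minus strand: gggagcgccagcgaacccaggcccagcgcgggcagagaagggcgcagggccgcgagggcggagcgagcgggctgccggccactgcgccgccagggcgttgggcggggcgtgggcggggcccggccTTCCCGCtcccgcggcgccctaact
The printed stretches of Cdk1, Ube2c, Top2a, Mki67 and Cdc20 each held a CHR and a CCAAT box. That of Ccnb1, also a mitotic gene, held CCAAT boxes and an E2F match but no CHR. That of Cdkn2c held an E2F match alone, and that of Ccnd3 held no match. RefSeq promoter windows of 300 bases, 250 before and 50 after the start, were at hand for 45 of the 53 members and not for Cdc25c, Ccnd2, Foxm1, Tpx2, Ccna2, Kif20a, Ccne2 and Aurkb. A CHR was found in 25 of these 45 members (55.6%) and in 21.7% of all 27025 genes with a window. A CCAAT box was found in 33 members (73.3%) against 41.1% of all genes, an E2F match in 12 (26.7%) against 10.9%, and a CHR together with a CCAAT box in 23 (51.1%) against 8.61%. Among the members of mitosis proper (G2 to M regulators, spindle checkpoint, centromere and spindle genes), 22 of 28 held a CHR (78.6%), compared with 1 of 8 (12.5%) of the G1 to S cyclins, CDKs and E2F factors. A gene with several windows was counted as holding a motif if any of them did. Ccnd3 and Cdkn2c have 2 RefSeq windows each, of which a stretch of 1 is printed, against 1 window for each mitotic gene printed. Over both full windows each held a CCAAT box, and neither held a CHR. A match is a description of letters and not evidence of a bound factor.

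Values are read counts that the authors scaled between libraries, and the sequencing depth behind them is not known from the files. No member had a value of 0 in any library, and the mean over libraries ranged from 622 to 11890 among members. The mean value over all genes ranged from 1227 to 2385 between libraries, so the scaling did not equalise library totals. Libraries were checked against cell type markers. The summed level of 10 myeloid markers was several times higher in every syngeneic library, at 78503 or more in CD4 and 37999 to 62174 in CD8, than in allogeneic libraries, at 5451 to 11044 in CD4 and 6625 to 10739 in CD8, or at day 0, at 810.2 and 1694 in CD4 and 3647 and 4989 in CD8. The library CD4 syngeneic JL019-2 stood apart further, with Lyz2, a lysozyme of myeloid cells, at 825480 and a myeloid sum of 3608500, against 84522 and 78503 in the other CD4 syngeneic libraries. Its Cd4 value was 1659 and its Cd8a value 1956, against Cd4 at 16526 and 14576 and Cd8a at 58.2 and 114 in the other CD4 syngeneic libraries. Cd3e read 5737 in it, against 21298 and 18990. It was kept under its label as a CD4 library. Both CD8 day 0 libraries carried erythroid transcripts: the sum of Klf1, Epor, Slc4a1 and Alas2 was 3303 and 3486 there, against 299 to 360.3 in CD4 day 0. Summed over all 8 erythroid markers, globins included, CD8 day 0 stood at 25618 and 29140. CD4 Treg-treated JL027-1 and JL027-2 (31293 and 38249.6), Treg JL027 of the Treg-treated arm (30333) and CD4 syngeneic JL019-2 (318374) stood above that. Foxp3, the defining factor of Treg cells, read 198 to 442 in the Treg libraries, below the 978 to 1145 of CD4 day 0, although the Treg markers Il2ra (11229 to 24209) and Ikzf2 (11615 to 19287) were high in them.

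Levels of the 53 members were summarised in each library as the median, over members, of the log2 difference from the CD4 day 0 mean. This median was lowest in CD4 day 0, at -0.06 and 0.06, and stood at 0.33 and 0.69 in Treg day 0 and at 1.50 and 1.64 in CD8 day 0. After transplantation it was 3.25 to 3.30 in CD4 syngeneic, 3.07 to 3.44 in CD4 allogeneic and 3.06 to 3.71 in CD4 Treg-treated libraries, which overlap. In CD8 it was 2.81 to 3.32 in syngeneic libraries, 3.83 to 4.16 in allogeneic and 3.91 to 4.60 in Treg-treated libraries, and the syngeneic range lay below the other two. Treg cells recovered from Treg-treated recipients stood at 2.51 to 2.71, below every post-transplant CD4 and CD8 library. The pooled SD between libraries of a group was 0.207 on this log2 scale. Going up from CD4 day 0, the group means of Treg day 0, CD8 day 0, recovered Treg and CD8 syngeneic each lay above the one before by more than this SD. CD8 syngeneic and the 3 post-transplant CD4 arms overlapped one another, as did CD8 allogeneic and CD8 Treg-treated.

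**Figure D1:**
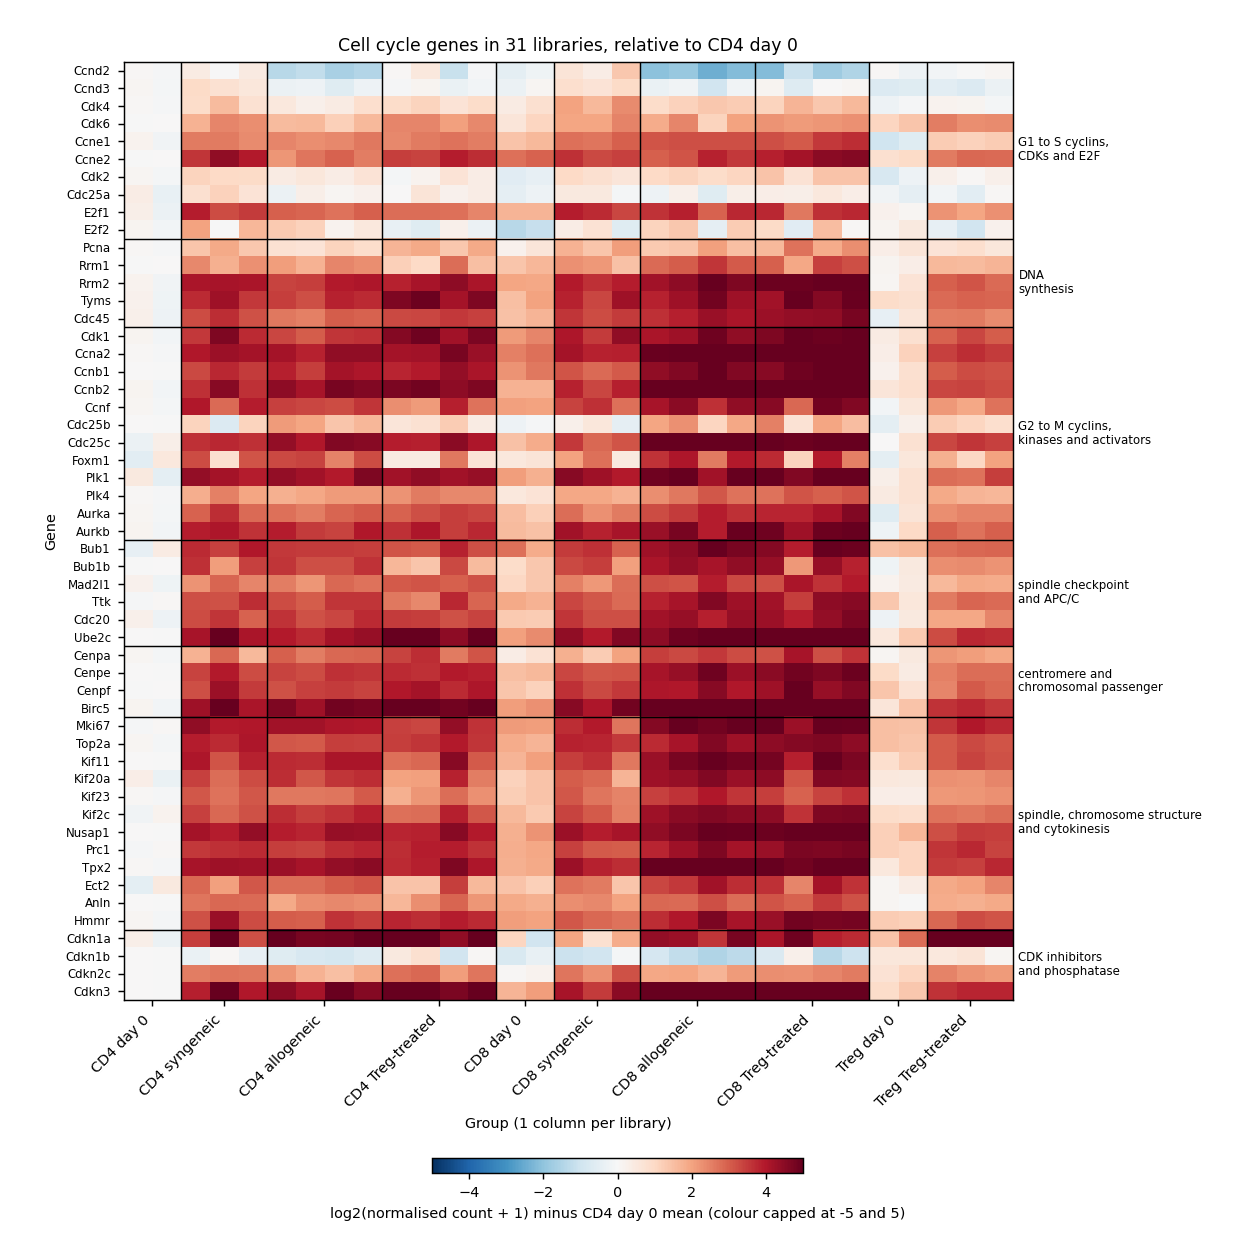
Log2 difference of each of the 53 members from its CD4 day 0 mean (colour, limited to -5 and 5), with members in rows by role and the 31 libraries in columns by group. Most members of DNA synthesis and mitosis darken after transplantation, with the CD8 allogeneic and Treg-treated columns darkest, whereas Ccnd2 lies below its CD4 day 0 mean in the CD4 and CD8 allogeneic columns.

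Before transplantation the cell types already differed. Changes are given as log2 differences of group means with their standard error, from a limma model over all libraries, and a gene was called when its Benjamini-Hochberg adjusted p over all genes was below 0.05. In CD8 day 0 compared with CD4 day 0, 34 of 53 members were higher and 0 lower, while 3.32% of all genes were called, 2.22% higher and 1.1% lower. The median difference over members was 1.54, against 0.07 over all genes. Ccna2, the cyclin of S phase and G2, read 407 and 374 in the CD4 and 2226 and 2647 in the CD8 libraries, a difference of 2.63 ± 0.27 (limma adjusted p = 2.97e-07). Of 10 G1 to S genes Ccne2, E2f1 and Ccne1 were called. Ccne2, an E cyclin, read 103 and 103 in CD4 and 698 and 801 in CD8 (2.84 ± 0.30, limma adjusted p = 3.64e-07). E2f1, an activating E2F factor, read 117 and 79.0 in CD4 and 318 and 313 in CD8 (1.70 ± 0.33, limma adjusted p = 0.00178), and the other E cyclin, Ccne1, 379 and 292 in CD4 and 900.4 and 1037 in CD8 (1.54 ± 0.21, limma adjusted p = 2.46e-05). None of these 3 genes overlapped between the cell types. Rrm2, the ribonucleotide reductase subunit that is rate-limiting for DNA synthesis, was higher by 1.97 ± 0.28 (limma adjusted p = 3.55e-05), Prc1, which bundles microtubules of the central spindle, by 1.87 ± 0.23 (limma adjusted p = 5.46e-06), and Bub1, a spindle checkpoint kinase, by 2.30 ± 0.36 (limma adjusted p = 0.000138). D cyclins and CDK inhibitors were not among the called genes: Ccnd2 differed by -0.35, Ccnd3 by -0.10, Cdkn1b by -0.55 and Cdkn2c by 0.12. The 2 CD8 libraries are those noted above for erythroid transcripts, and 8 of 8 erythroid markers were higher in them than in CD4 day 0, 2 of them called. The sum of 7 B cell markers was 1917 and 2673 in CD8 and 718 and 534 in CD4, and the myeloid sum 3647 and 4989 in CD8 and 1694 and 810.2 in CD4. The part of erythroid precursors or of these other cell types in the CD8 day 0 levels was not tested. Without CD4 day 0 JL027 the count of members called was 22 of 53. The E2f1 call ended without CD4 day 0 JL027 (1.43, limma adjusted p = 0.0756).

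**Figure D2:**
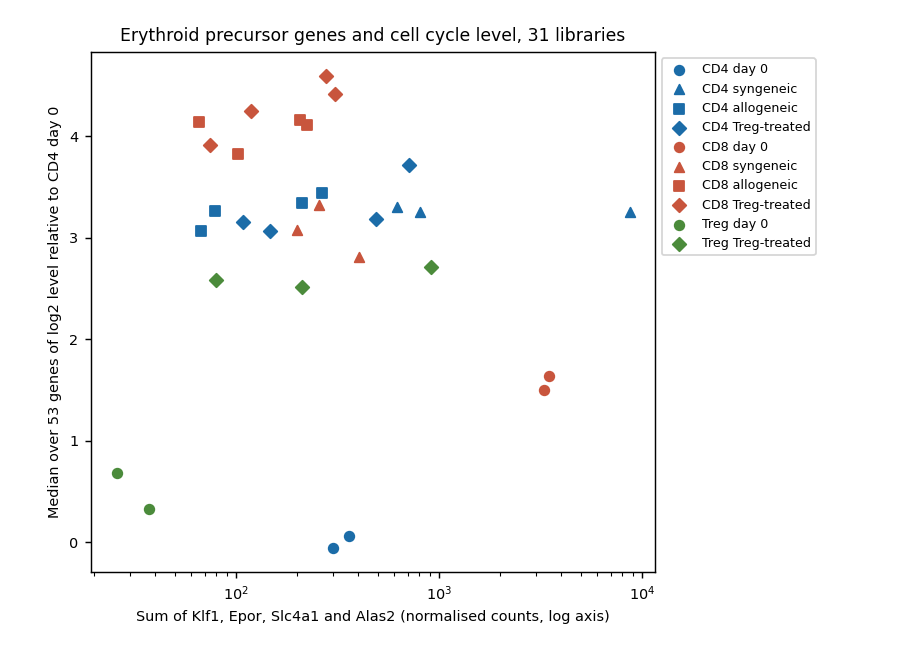
Summed value of the erythroid precursor transcripts Klf1, Epor, Slc4a1 and Alas2 (horizontal, log axis) against the median over the 53 members (log2 difference from CD4 day 0), 1 point per library, coloured by cell type and shaped by arm. Both CD8 day 0 libraries (3303 and 3486) lie to the right of the other libraries except CD4 syngeneic JL019-2 (8679). The globins and Tfrc are not in this sum.

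Treg day 0 had 7 members higher and 1 lower than CD4 day 0, where 3.89% of all genes were called, 2.54% higher and 1.34% lower. The median difference was 0.52 over members and 0.07 over all genes. Top2a, the topoisomerase that untangles replicated chromosomes, read 767 and 658 in CD4 and 2013 and 1854 in Treg (1.44 ± 0.23, limma adjusted p = 0.000258). Mki67, which encodes the Ki-67 antigen of dividing cells, read 309 and 330.1 in CD4 and 902 and 872 in Treg (1.47 ± 0.34, limma adjusted p = 0.0108). Prc1, Nusap1, Bub1, Hmmr and Cdk6 were the other higher members, of which Cdk6, a partner of D cyclins, read 366 and 384 in CD4 and 785 and 971 in Treg (1.22 ± 0.30, limma adjusted p = 0.0158). Ccne1 was the lower member, at 167 and 216 in Treg against 379 and 292 in CD4 (-0.80 ± 0.21, limma adjusted p = 0.0267). The libraries of each group did not overlap for these genes. The count was sensitive to single libraries and was 2 without CD4 day 0 JL019, 3 without Treg day 0 JL019, 4 without Treg day 0 JL027 and 5 without CD4 day 0 JL027. Leaving out any of the 4 libraries ended the calls of Mki67 (1.42 to 1.52, limma adjusted p 0.0708 to 0.108) and Cdk6 (1.06 to 1.37, limma adjusted p 0.0578 to 0.167). That of Ccne1 ended without CD4 day 0 JL019 (-0.62, limma adjusted p = 0.395) or Treg day 0 JL019 (-0.62, limma adjusted p = 0.37), and with the compared groups alone (-0.80, limma adjusted p = 0.0812). The sum of 10 myeloid markers was 2549.8 and 3391 in Treg and 1694 and 810.2 in CD4, and that of 7 B cell markers 1248 and 1096 in Treg and 718 and 534 in CD4. No marker of either list was called by limma, with 3 and 2 at an unadjusted p below 0.05, and their part in the Treg differences was not tested.

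In CD4 cells nearly the whole programme was higher after transplantation into syngeneic recipients. Of 53 members 49 were higher than at day 0 and 0 lower, against 13% of all genes called, 9.9% higher and 3.13% lower, with a median of 3.37 over members and -0.04 over all genes. Top2a rose from 767 and 658 at day 0 to 10878, 9517 and 11789.9 (3.91 ± 0.21, limma adjusted p = 6.25e-13). Mki67 rose from 309 and 330.1 to 6899.7, 4989 and 5167 (4.13 ± 0.31, limma adjusted p = 1.25e-10). Every syngeneic library was more than 10-fold above every day 0 library for both genes. Cdk1, the kinase that drives entry into mitosis, rose from 282 and 228 to 2973, 6535 and 3365 (3.99 ± 0.34, limma adjusted p = 8.63e-10), and its partner Ccnb1 from 425 and 415 to 4137, 5665 and 4699 (3.51 ± 0.26, limma adjusted p = 6.32e-11). The highest Cdk1, Ccnb1 and Pcna values of the group were those of JL019-2, the library with the most myeloid transcript. Pcna, the sliding clamp of DNA polymerase, rose from 4647 and 4314 to 11825, 16699 and 11487 (1.55 ± 0.27, limma adjusted p = 0.000209). Without that library 48 members were called higher. All 10 myeloid markers were called higher as well, with sums of 810.2 and 1694 at day 0 and 84522, 3608500 and 78503 in syngeneic libraries, and so were 5 of 8 erythroid markers. The part of other cell types in the CD4 changes was not tested.

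Role by role, the G1 to S group had the smallest median rise in CD4 syngeneic cells. Its median change was 1.16, with 8 of 10 members higher, compared with 3.31 to 3.64 in the other role groups, in which 41 of 43 members were higher. E2f1 rose from 117 and 79.0 to 1476, 924 and 1092 (3.56 ± 0.30, limma adjusted p = 9.23e-10). Cdk4 rose from 3793 and 3447 to 6907, 10843 and 6067 (1.09 ± 0.24, limma adjusted p = 0.00284) and Cdk6 from 366 and 384 to 1266, 2046 and 1859 (2.17 ± 0.27, limma adjusted p = 1.45e-06). Ccnd3 rose from 8546 and 7417 to 15259, 13649 and 11828 (0.76 ± 0.24, limma adjusted p = 0.0341). The other D cyclin of the set, Ccnd2, was at 8472 and 7678 at day 0 and 10596, 8039 and 10941 afterwards, so its groups overlapped and it was not called. E2f2 (739.5 and 610.2 at day 0, 2742, 657 and 2145 after) was not called either, and its lowest syngeneic value was in JL019-2. Among the inhibitors, Cdkn2c, which blocks Cdk4 and Cdk6, rose from 169 and 165 to 999.9, 1058 and 1040.2 (2.62 ± 0.25, limma adjusted p = 9.89e-09). Cdkn1a, the p53-responsive inhibitor p21, went from 39.9 and 25.9 to 361, 1452 and 309 (4.04 ± 0.63, limma adjusted p = 3.83e-05), with the highest value again in JL019-2. Cdkn1b, the inhibitor p27 of resting cells, read 1572 and 1499 at day 0 and 1219.9, 1583 and 1166 after and was not called. The Ccnd3 call ended without CD4 day 0 JL019 or JL027 or without CD4 syngeneic JL019-1 or JL019-2 (0.66 to 0.86, limma adjusted p 0.0825 to 0.27) and with quantile normalisation (0.46, limma adjusted p = 0.196), and that of Cdk4 without CD4 day 0 JL027 (1.02, limma adjusted p = 0.0581). Fitted on the compared groups alone, the calls of Ccnd3 (0.76, limma adjusted p = 0.236), Cdk4 (1.09, limma adjusted p = 0.227), Cdkn1a (4.04, limma adjusted p = 0.0981) and Pcna (1.55, limma adjusted p = 0.0717) ended, and median centring ended that of Ccnd3 (0.60, limma adjusted p = 0.0714).

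In CD8 cells the syngeneic rise was called for 41 of 53 members, with 0 lower, against 24.2% of all genes called, 13% higher and 11.3% lower. The median was 1.34 over members and -0.10 over all genes, from day 0 levels that already lay above those of CD4. Cdkn2c had the lowest p, at 173 and 190.2 at day 0 and 1069.9, 808 and 1517 in syngeneic recipients (2.59 ± 0.25, limma adjusted p = 7.15e-08). Top2a rose from 2578 and 2327 to 10198, 9944 and 8251 (1.94 ± 0.21, limma adjusted p = 4.25e-07). Mki67 was at 1386 and 1361 and then 4139.9, 5014 and 2041 (1.34 ± 0.31, limma adjusted p = 0.00353). The lowest of these Mki67 values, from JL027, lay closer to day 0 than to the other syngeneic libraries. Cdk1 rose from 1104 and 1397 to 4198, 2906 and 5528 (1.71 ± 0.34, limma adjusted p = 0.000755). Ccnb1 read 2002 and 2626 at day 0 and 3669.9, 3008 and 3544 in syngeneic recipients, without overlap, but was not called (0.57 ± 0.26, limma adjusted p = 0.103).
G1 to S members rose with the rest in CD8 cells, 7 of 10 with a median of 1.28. Ccnd2 went from 5713 and 6982 to 12511, 10339.8 and 20773 (1.14 ± 0.33, limma adjusted p = 0.0162) and Ccnd3 from 6489.7 and 8459 to 14420.2, 12739 and 15390.1 (0.93 ± 0.24, limma adjusted p = 0.00718). Cdk4 rose from 4844 and 6252 to 14762, 11158 and 18388 (1.39 ± 0.24, limma adjusted p = 0.000237) and E2f1 from 318 and 313 to 1492, 1291 and 983 (1.97 ± 0.30, limma adjusted p = 4.42e-05). These 4 genes had higher values in every syngeneic library. Cdk6 rose from 571 and 783 to 1482, 1492 and 2071 (1.31 ± 0.27, limma adjusted p = 0.00139) and Pcna from 5264 and 6776 to 15002, 11694 and 18924 (1.32 ± 0.27, limma adjusted p = 0.00134). E2f2 (256 and 298, then 872, 1120.4 and 437), Cdkn1a (69.6 and 16.1, then 128, 56.6 and 119.9) and Cdkn1b (915 and 1196, then 727, 785 and 1419.9) were not called. Over the same interval 4 of 8 erythroid markers fell and 0 were higher, while the myeloid sum went from 3647 and 4989 to 37999, 51724 and 62174, with 3 of 10 myeloid markers called higher. Their part in the CD8 changes was not tested. Without CD8 day 0 JL019, 1 of the libraries with erythroid transcripts, the calls of Ccnd2 (0.99, limma adjusted p = 0.183), Ccnd3 (0.74, limma adjusted p = 0.156), Cdk6 (1.08, limma adjusted p = 0.0612) and Pcna (1.14, limma adjusted p = 0.0518) ended. The Ccnd2 call also ended without CD8 syngeneic JL027 (0.85, limma adjusted p = 0.103), with quantile normalisation (0.57, limma adjusted p = 0.144) and with the library mean in the model (0.56, limma adjusted p = 0.251), and the Ccnd3 call with quantile normalisation (0.39, limma adjusted p = 0.259). The compared groups alone ended both (limma adjusted p = 0.0506 for Ccnd2 and 0.0527 for Ccnd3).

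**Figure D3:**
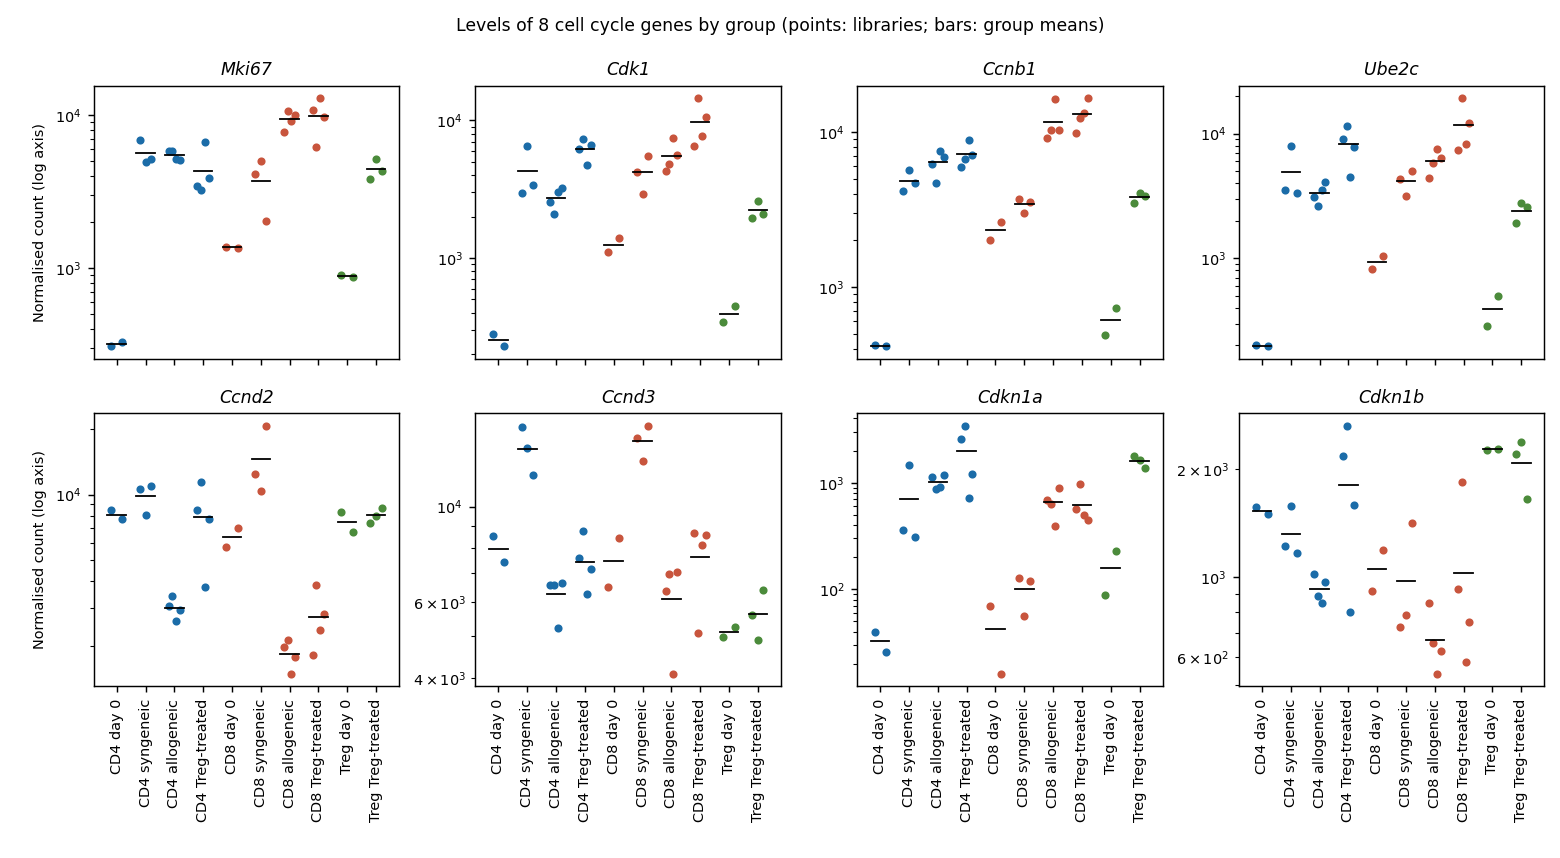
Value in each library (points, log axis) and group mean (bar) of Mki67, Cdk1, Ccnb1, Ube2c, Ccnd2, Ccnd3, Cdkn1a and Cdkn1b in the 10 groups of cell type and arm. The 4 mitotic genes step up from day 0 in each cell type, while the group mean of Ccnd2 is lowest in the allogeneic arm of both CD4 and CD8.

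The allogeneic response was then compared with the syngeneic one, through the same syngeneic libraries that were set against day 0. In CD8 cells 31 of 53 members were higher in allogeneic than in syngeneic recipients and 4 were lower, against 21.1% of all genes called, 10.4% higher and 10.7% lower. The median over members was 0.89 and over all genes 0.02. Higher members lay in G2 and mitosis: 8 of 12 G2 to M genes, 5 of 6 checkpoint genes, 3 of 4 centromere genes and 11 of 12 spindle genes, compared with 0 of 10 G1 to S genes. Of the DNA synthesis group Rrm1 (1.15 ± 0.33, limma adjusted p = 0.0135) and Rrm2 (0.75 ± 0.21, limma adjusted p = 0.0121), both ribonucleotide reductase subunits, were higher. The Rrm1 call ended without CD8 syngeneic JL027 (0.90, limma adjusted p = 0.115) and that of Rrm2 without CD8 syngeneic JL019-2 (0.65, limma adjusted p = 0.058) or CD8 allogeneic JL027-1 (0.59, limma adjusted p = 0.0503). In the same comparison 5 of 10 myeloid markers were called lower and 2 higher, with sums of 37999 to 62174 in syngeneic and 6625 to 10739 in allogeneic libraries. The sum of 7 B cell markers was 3275 to 4051 in syngeneic and 1134 to 1256 in allogeneic libraries. Most of that fall was in Cd22 (1424 to 3083 against 265 to 430), while Ebf1 was higher in every allogeneic library. Their part in the CD8 changes was not tested.

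Cdc25c, the phosphatase that activates Cdk1, had the lowest p. It read 386, 243 and 298 in syngeneic and 1352, 1218, 1939 and 1217 in allogeneic CD8 libraries, a 4.61-fold difference (2.21 ± 0.24, limma adjusted p = 5.66e-08). Ccnb1 read 3669.9, 3008 and 3544 in syngeneic and 9134, 10336, 16180.4 and 10288 in allogeneic libraries (1.72 ± 0.21, limma adjusted p = 7.41e-07). The groups were well apart for both genes. Mki67 rose from 4139.9, 5014 and 2041 to 7783, 10681, 9130.1 and 10079 (1.42 ± 0.26, limma adjusted p = 0.000195). Cenpa, the histone variant that marks centromeres, was higher by 1.69 ± 0.27 (limma adjusted p = 2.96e-05), and Cenpe, a kinesin of the kinetochore, by 1.20 ± 0.19 (limma adjusted p = 2.93e-05). Among spindle genes Tpx2, an activator of Aurora A, was higher by 1.29 ± 0.21 (limma adjusted p = 3.87e-05), and among checkpoint genes Bub1 by 1.27 ± 0.27 (limma adjusted p = 0.00114). Foxm1, the transcription factor of the G2 to M programme, read 558, 938 and 193 in syngeneic and 1703, 2290.0, 834 and 2146 in allogeneic libraries (1.80 ± 0.65, limma adjusted p = 0.0477). The Foxm1 call ended without CD8 syngeneic JL019-1 or JL027 or without CD8 allogeneic JL019-1, JL019-2 or JL027-2 (1.17 to 1.93, limma adjusted p 0.0819 to 0.325), with the title prefix as a block (1.76, limma adjusted p = 0.0576) and with quantile normalisation (1.70, limma adjusted p = 0.0548). Top2a (10198, 9944 and 8251, then 9399, 12545, 17608 and 13293) and Cdk1 (4198, 2906 and 5528, then 4276, 4842, 7464 and 5569) overlapped between the arms and were not called.

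D cyclins moved against the mitotic genes in the same CD8 libraries. Ccnd2 was at 12511, 10339.8 and 20773 in syngeneic and 1971, 2140.0, 1485 and 1781 in allogeneic libraries, a 7.6-fold fall (-2.93 ± 0.28, limma adjusted p = 7.64e-09). Ccnd3 fell from 14420.2, 12739 and 15390.1 to 6353, 6964, 4088 and 7057 (-1.24 ± 0.20, limma adjusted p = 3.57e-05) and Cdk4 from 14762, 11158 and 18388 to 6837, 8034, 9246 and 8709.9 (-0.83 ± 0.20, limma adjusted p = 0.00401). No allogeneic library reached a syngeneic one for these 3 genes. Cdk6 (1364, 2056, 809 and 1525 in allogeneic libraries), E2f1 (1192, 1415, 758 and 1318), E2f2 (1469, 1702, 487 and 1641) and Pcna (10979, 11868, 18351 and 12808) overlapped their syngeneic values and were not called. The inhibitors split. Cdkn1a rose from 128, 56.6 and 119.9 to 692, 636, 393 and 897, a 6.52-fold difference (2.71 ± 0.53, limma adjusted p = 0.000379), whereas Cdkn2c fell from 1069.9, 808 and 1517 to 632, 664, 539 and 731 (-0.78 ± 0.21, limma adjusted p = 0.00789). The Cdkn2c call was lost without CD8 syngeneic JL027, at -0.54 with a limma adjusted p of 0.106. Cdkn1b, at 851, 655, 538 and 624 in allogeneic libraries, was not called. Cdkn3, a phosphatase acting on CDKs, was higher by 1.31 ± 0.36 (limma adjusted p = 0.01), a call that ended without CD8 syngeneic JL019-2 (1.04, limma adjusted p = 0.0694).

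In CD4 cells 2 members were higher and 7 lower in allogeneic than in syngeneic libraries, against 14.6% of all genes called, 6.69% higher and 7.91% lower, so the share of members called was close to that of all genes. The medians were -0.11 over members and 0.00 over all genes. Mki67 was at 6899.7, 4989 and 5167 in syngeneic and 5885, 5893, 5226 and 5085 in allogeneic libraries (-0.03 ± 0.26, limma adjusted p = 0.962). Cdk1 (2551, 2102, 3009 and 3203 in allogeneic libraries) and Ccnb1 (6226, 4679, 7555 and 6915) overlapped their syngeneic values and were not called. Both D cyclins and an E cyclin were among the lower members. Ccnd2 fell from 10596, 8039 and 10941 to 3053, 3403, 2600.2 and 2944 (-1.71 ± 0.28, limma adjusted p = 7.89e-05). Ccnd3 fell from 15259, 13649 and 11828 to 6561, 6587, 5234 and 6629 (-1.12 ± 0.20, limma adjusted p = 0.000243), and Ccne2 from 1231, 2261 and 1606 to 484, 657, 798 and 618 (-1.39 ± 0.23, limma adjusted p = 8.13e-05). None of these 3 genes overlapped between the arms. Cdc25a, a phosphatase of the G1 to S step, was lower by 0.79 ± 0.24 (limma adjusted p = 0.0209) and Cdkn2c by 0.79 ± 0.21 (limma adjusted p = 0.00951), the latter at 764, 557, 479 and 624 in allogeneic libraries. Top2a was at 6098, 5954, 7883 and 7572 (-0.65 ± 0.18, limma adjusted p = 0.0117) and Pcna at 7539.6, 7119, 9585 and 8191 (-0.71 ± 0.23, limma adjusted p = 0.0371). Without CD4 syngeneic JL019-2 the calls of Pcna (-0.53, limma adjusted p = 0.219) and Cdc25a (-0.66, limma adjusted p = 0.119) ended. The Pcna call also ended without CD4 allogeneic JL019-1, JL019-2 or JL027-2 (-0.71 to -0.53, limma adjusted p 0.066 to 0.219 over the 4 libraries), that of Cdc25a without CD4 allogeneic JL019-1 (-0.67, limma adjusted p = 0.0839) and that of Top2a without CD4 syngeneic JL027 (-0.58, limma adjusted p = 0.0566). Cdc25b, another phosphatase of Cdk1, was the higher member with the lowest p, at 3742, 1066 and 3769.8 against 7606, 6757, 4549 and 5508 (1.28 ± 0.39, limma adjusted p = 0.025). That call ended without CD4 syngeneic JL019-2 (0.67, limma adjusted p = 0.317) and without CD4 allogeneic JL019-1 (1.16, limma adjusted p = 0.0769) or JL019-2 (1.22, limma adjusted p = 0.0605). Cdc25c was higher by 0.70 ± 0.24 (limma adjusted p = 0.044), but the call ended when any 1 library other than CD4 allogeneic JL019-2 was left out, JL019-2 of the syngeneic arm included (0.62 to 0.74, limma adjusted p 0.0774 to 0.118), and with quantile normalisation (0.70, limma adjusted p = 0.0989). Fitted on the compared groups alone, the calls of Top2a (-0.65, limma adjusted p = 0.0746), Pcna (-0.71, limma adjusted p = 0.0767), Cdc25a (-0.79, limma adjusted p = 0.0691), Cdkn2c (-0.79, limma adjusted p = 0.0628), Cdc25b (1.28, limma adjusted p = 0.133) and Cdc25c (0.70, limma adjusted p = 0.0958) ended, which left 3 calls. Median centring ended those of Top2a (-0.54, limma adjusted p = 0.0882) and Pcna (-0.60, limma adjusted p = 0.189). Without CD4 syngeneic JL019-2 the counts were 3 higher and 5 lower. Of 10 myeloid markers 9 were called lower in allogeneic libraries and 0 higher, and of 8 erythroid markers 4 and 0, and their part in the CD4 changes was not tested. Cdk4 (5239, 4368, 4792 and 6441), Cdk6 (1131, 1165, 863 and 1150.1), E2f1 (776, 724, 636 and 769.9), E2f2 (1650.2, 1488, 749 and 978), Cdkn1a (1119.6, 878, 913 and 1191) and Cdkn1b (1021, 889, 846 and 969) were not called between the CD4 arms.

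**Figure D4:**
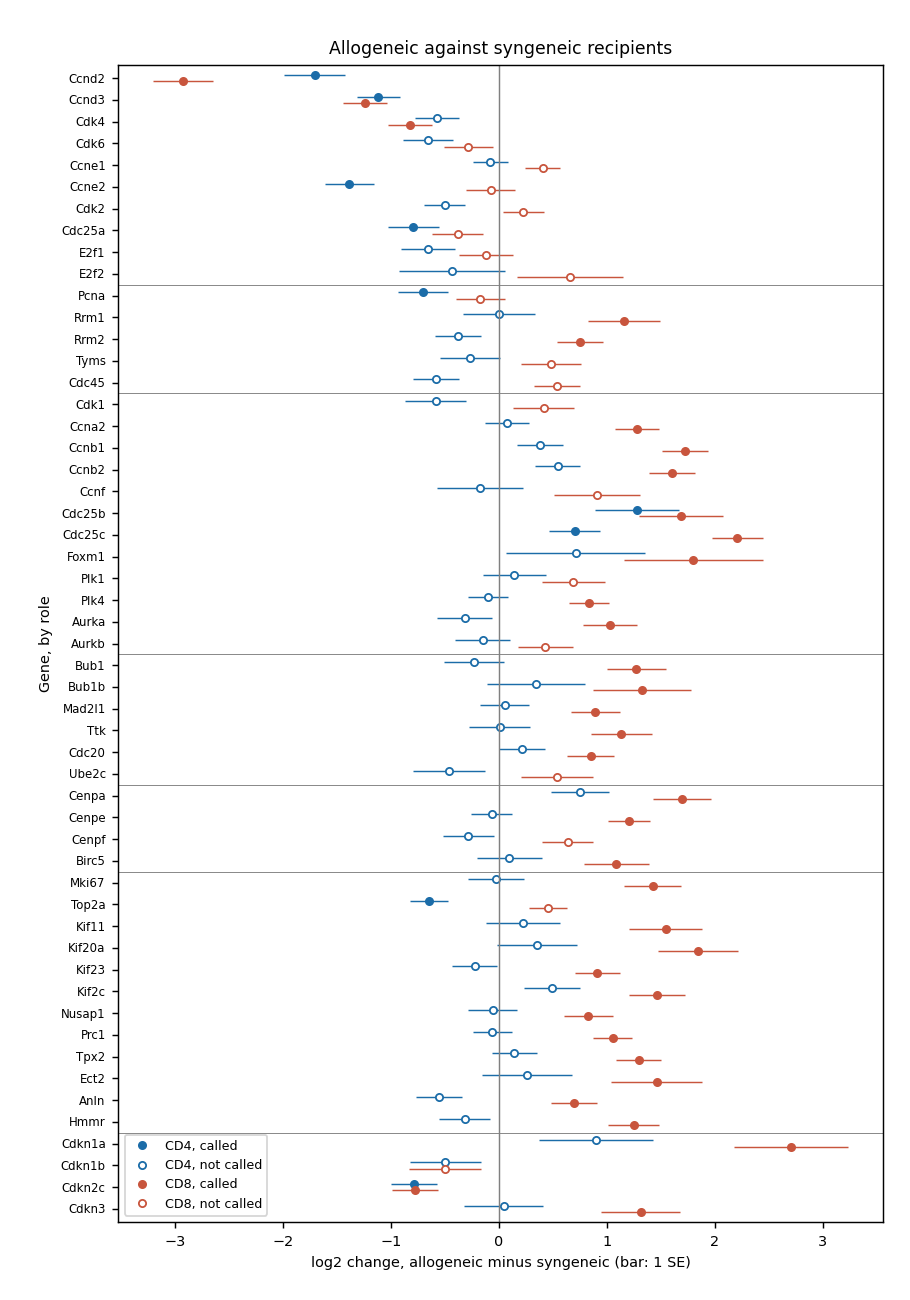
Log2 change from syngeneic to allogeneic recipients of each of the 53 members, by role, in CD4 (blue) and CD8 (red) cells, with bars of 1 standard error and filled points for called members. In CD8 31 filled points lie to the right and 4 to the left, and in CD4 2 lie to the right, Cdc25b and Cdc25c, and 7 to the left. The D cyclins Ccnd2 (-1.71 in CD4, -2.93 in CD8) and Ccnd3 (-1.12 and -1.24) lie to the left in both.

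The difference between these 2 responses was tested directly. The signed change from syngeneic to allogeneic recipients was more positive in CD8 than in CD4 cells for 18 of 53 members and more negative for 0, against 4.65% of all genes called, 2.69% higher and 1.96% lower, and the median difference was 1.06 over members and 0.01 over all genes. Of the 18, 15 were called higher in CD8 by its own comparison, while Ccne2, Cdc45 and Top2a were not called there, and Ccne2 and Top2a were called lower in CD4. Cenpe had the lowest p, with values of 1891, 2816 and 1742 in CD4 syngeneic, 1867, 1752, 2269.8 and 2171 in CD4 allogeneic, 1831, 1569.6 and 1604 in CD8 syngeneic and 3136, 3726, 5318 and 3491 in CD8 allogeneic libraries. Its difference in response was 1.27 ± 0.27 (limma adjusted p = 0.00459). Hmmr, a spindle-associated hyaluronan receptor, followed with 1.57 ± 0.34 (limma adjusted p = 0.0054), Cdc25c with 1.50 ± 0.33 (limma adjusted p = 0.00661) and Ccnb1 with 1.34 ± 0.30 (limma adjusted p = 0.00779). Mki67 differed by 1.45 ± 0.37 (limma adjusted p = 0.0201) and Top2a by 1.10 ± 0.25 (limma adjusted p = 0.00818), the latter from changes of -0.65 in CD4 and 0.45 in CD8. For the D cyclins the difference did not pass the test: Ccnd2 differed by -1.22 ± 0.40 (limma adjusted p = 0.0808) and Ccnd3 by -0.12 ± 0.28 (limma adjusted p = 0.907). The count depended on the fit: 6 with libraries centred on their median, 10 with the compared groups alone, 32 with the library mean in the model, 35 with array weights, 13 without CD4 syngeneic JL019-2, and 0 within either title prefix, where few libraries remain. The shares of all genes above are those of the main fit. Median centring ended the calls of Ccnb1 (1.19, limma adjusted p = 0.0518) and Top2a (0.95, limma adjusted p = 0.0668), the compared groups alone those of Hmmr (1.57, limma adjusted p = 0.0615) and Top2a (1.10, limma adjusted p = 0.0611), quantile normalisation that of Cdc25c (1.37, limma adjusted p = 0.0531), and leaving out CD8 syngeneic JL027 that of Mki67 (1.07, limma adjusted p = 0.0882).

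Each allogeneic group was also set against its own day 0, a comparison that shares libraries with the previous ones. In CD4, 46 members were higher and 1 lower, against 24% of all genes called, 14.4% higher and 9.61% lower, with a member median of 3.36 and an all-gene median of -0.04. In CD8, 47 were higher and 1 lower, against 30.4% of all genes called, 16.3% higher and 14.2% lower, with medians of 2.38 and -0.13. Ccnb2, a B-type cyclin, had the lowest p in both. In CD4 it rose from 335 and 269.8 to 6761, 5204, 8065 and 7557 (4.50 ± 0.24, limma adjusted p = 1.42e-13), and in CD8 from 994 and 1003 to 11834, 10522, 14983 and 10849 (3.58 ± 0.24, limma adjusted p = 6.75e-12). The lower member was Ccnd2 in both cell types, below its day 0 value by 1.43 ± 0.32 (limma adjusted p = 0.0012) in CD4 and 1.79 ± 0.32 (limma adjusted p = 8.61e-05) in CD8. Every allogeneic library lay under every day 0 library of its cell type for Ccnd2. The sum of Klf1, Epor, Slc4a1 and Alas2 was 3303 and 3486 in CD8 day 0 and 65.6 to 223 in CD8 allogeneic libraries, and the myeloid sum was 810.2 and 1694 in CD4 day 0 and 5451 to 11044 in CD4 allogeneic libraries. Their part in these changes was not tested.

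Treatment with Treg cells was compared with untreated GVHD through the same allogeneic libraries. In CD4 cells 10 members were higher in Treg-treated recipients and 3 lower, against 22.2% of all genes called, 10.7% higher and 11.5% lower, so the share of members called was close to that of all genes. The median was 0.18 over members and 0.00 over all genes, and that over members was 0.0881 without CD4 allogeneic JL019-2, 0.0962 with array weights and 0.38 with median centring. Ccnd2, which had been lowest in the allogeneic libraries, was at 3053, 3403, 2600.2 and 2944 there and 8458, 11491, 3757 and 7703 in treated libraries (1.29 ± 0.26, limma adjusted p = 0.00614). Ccne2 rose from 484, 657, 798 and 618 to 1139, 1090.3, 1566 and 1328 (1.01 ± 0.21, limma adjusted p = 0.00738) and Cdk6 from 1131, 1165, 863 and 1150.1 to 2065, 2032, 1539.9 and 1972 (0.82 ± 0.21, limma adjusted p = 0.0144). All 4 treated libraries lay above all 4 allogeneic libraries for these genes. Pcna rose from 7539.6, 7119, 9585 and 8191 to 14533, 16859, 11314 and 16534 (0.86 ± 0.21, limma adjusted p = 0.013) and Tyms, thymidylate synthase, from 4157, 3542, 5452 and 5057 to 9707, 11445, 6721 and 9630.1 (1.04 ± 0.26, limma adjusted p = 0.013). Cdk1 rose from 2551, 2102, 3009 and 3203 to 6189.7, 7367, 4703 and 6569 (1.19 ± 0.26, limma adjusted p = 0.00877). Ube2c, the ubiquitin-conjugating enzyme of the anaphase-promoting complex, rose from 3129, 2641, 3544 and 4068 to 9104, 11411, 4492 and 7787 (1.23 ± 0.31, limma adjusted p = 0.0132). The lowest treated value of Ccnd2, Cdk6, Pcna, Tyms, Cdk1 and Ube2c was that of JL027-1 each time. Cenpf, a kinetochore protein, was higher by 0.61 ± 0.22 (limma adjusted p = 0.0473), and Cdkn2c was at 1141, 1212, 709 and 1058 (0.76 ± 0.19, limma adjusted p = 0.0142). Without treated JL019-2 the calls of Pcna (0.79, limma adjusted p = 0.0559), Tyms (0.93, limma adjusted p = 0.0559) and Ube2c (1.05, limma adjusted p = 0.0586) ended, and without treated JL019-1 or JL019-2 those of Cdk6 (0.78 to 0.79, limma adjusted p 0.0535 to 0.0559) and Cdkn2c (0.67 to 0.70, limma adjusted p 0.0546 to 0.0596). The Cenpf call ended when any 1 library other than treated JL027-1 was left out (0.54 to 0.65, limma adjusted p 0.0559 to 0.136).

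The 3 lower members were Foxm1, Bub1b and Cdc25b. Foxm1 read 1349, 1425, 767 and 1314 in allogeneic and 185, 189, 852 and 222 in treated libraries (-2.04 ± 0.60, limma adjusted p = 0.0207). Bub1b, a spindle checkpoint kinase, read 3299, 2590.3, 2582 and 3371 in allogeneic and 885, 731, 2772 and 830.3 in treated libraries (-1.41 ± 0.42, limma adjusted p = 0.0222), and Cdc25b went from 7606, 6757, 4549 and 5508 to 2633, 2917, 4197 and 2335 (-1.02 ± 0.36, limma adjusted p = 0.0427). In treated JL027-1 Foxm1 and Bub1b stood inside the allogeneic range. Mean values over all genes were 1964, 2118, 1608 and 1817 in the 4 treated libraries, with JL027-1 again the one unlike the others, and 1504 to 1669 in the allogeneic ones. Low Foxm1 with a high library mean was also seen in other arms, in CD4 syngeneic JL019-2 (237 at a mean of 2033), CD8 syngeneic JL027 (193 at 2119) and CD8 Treg-treated JL019-2 (300.4 at 2385). Foxm1 was less low in CD8 Treg-treated JL027-2, at 789 with a mean of 1968. With the library mean in the model the changes were -0.87 for Foxm1 (limma adjusted p = 0.162), -0.65 for Bub1b (0.196) and -0.42 for Cdc25b (0.405), and 6 members were higher and 0 lower. Ccnd2 (0.99, limma adjusted p = 0.025) and Cdk1 (0.70, limma adjusted p = 0.0156) stayed called in that model, while the calls of Cdk6 (0.71, limma adjusted p = 0.0674), Cdkn2c (0.58, limma adjusted p = 0.0749) and Cenpf (0.34, limma adjusted p = 0.343) ended. Median centring also ended the Cdc25b call (-0.82, limma adjusted p = 0.0589). The summed myeloid markers were 23763 to 86926 in treated and 5451 to 11044 in allogeneic CD4 libraries. Most of these sums came from S100a8, S100a9 and Lyz2. Every treated library lay above every allogeneic one for these genes and for Ly6g and Cd14. For Itgam every treated library lay below (76.7 to 304 against 392 to 571), and the remaining myeloid markers overlapped. The summed erythroid markers were 4635, 4224, 31293 and 38249.6 in treated and 1618, 2191, 7052 and 7653 in allogeneic CD4 libraries, higher in treated libraries within each title prefix, with 0 of 8 called by limma and 5 at an unadjusted p below 0.05. The part of either list in these changes was not tested.
Leaving out 1 library ended the Foxm1 call for 5 of 8 libraries (-1.98 to -1.84, limma adjusted p 0.0549 to 0.0752), all but allogeneic JL027-1 and JL027-2 and treated JL027-1. It ended the calls of Bub1b (-1.47 to -1.21, limma adjusted p 0.0507 to 0.0863) and Cdc25b (-1.06 to -0.91, limma adjusted p 0.0689 to 0.119) for 6 of 8, all but the JL027-1 library of either arm. Single libraries moved the counts. The share of all genes given for this comparison belongs to the main fit, and none is set beside the counts that follow. Without treated JL027-1, 13 members were higher and 12 lower. Without treated JL019-2, 3 were called, and without treated JL019-1 6 were higher and 0 lower. Leaving out treated JL027-2, allogeneic JL019-1 or allogeneic JL019-2 gave 8 higher and 0 lower. With libraries centred on their median, 17 members were higher and 2 lower.
Members with a key place in the programme that were not called included Mki67, at 3461, 3234, 6727 and 3911 in treated libraries (-0.41 ± 0.24, limma adjusted p = 0.225), Top2a (7889, 8361, 11129.6 and 8522), Ccnb1 (5923, 6638, 8893 and 7136), Ccnd3 (7577, 8771, 6262 and 7165), Cdk4 (6886, 7871, 5842 and 6805), E2f1 (663, 673, 655 and 526) and E2f2 (516, 438, 794 and 542). Cdkn1a (2558, 3415, 722 and 1199) and Cdkn1b (2181, 2648, 799.9 and 1592) spread widely among the treated libraries and were not called.

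**Figure D5:**
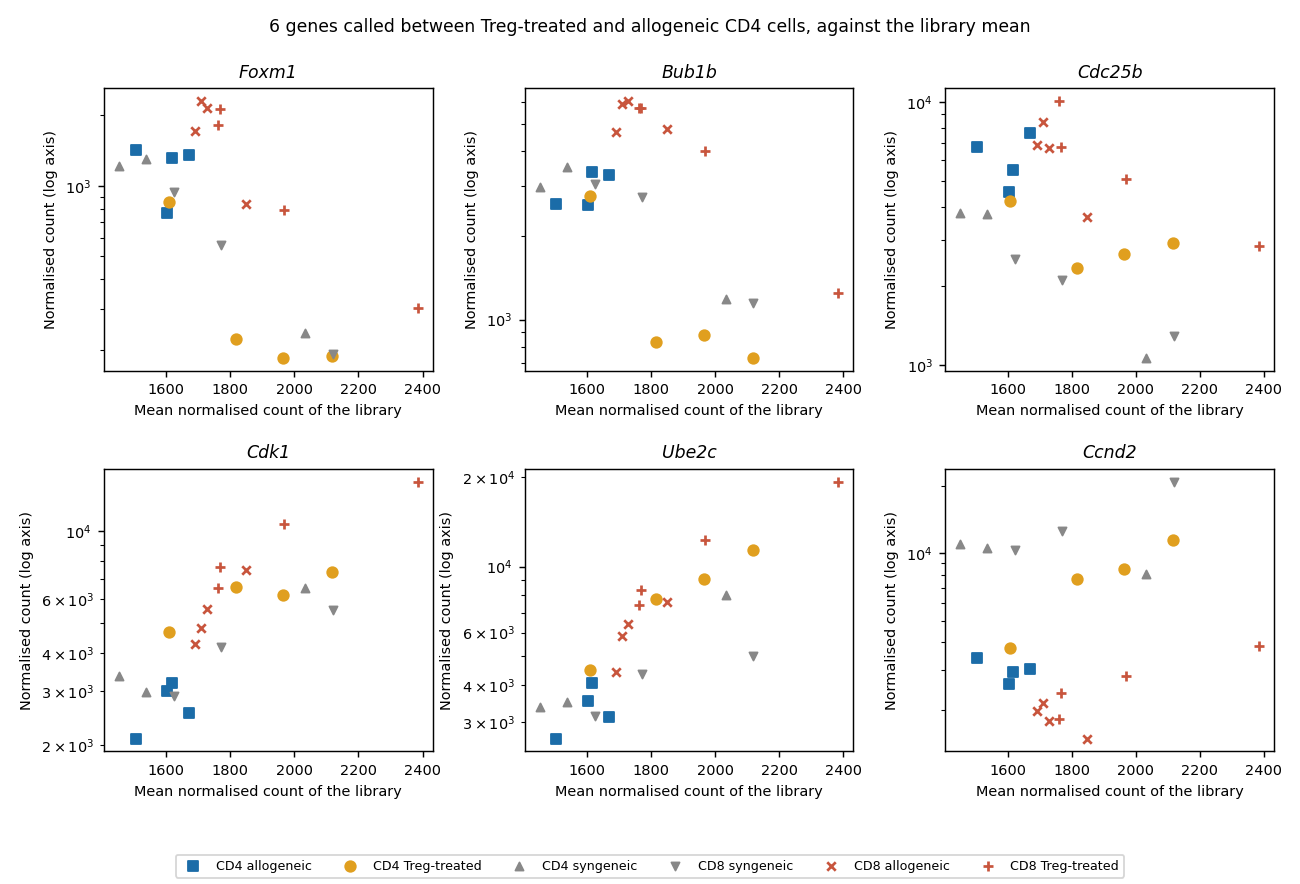
Values of Foxm1, Bub1b, Cdc25b, Cdk1, Ube2c and Ccnd2 (vertical, log axis) against the mean value over all genes of the same library, 1 point per post-transplant CD4 or CD8 library, marked by cell type and arm. Among CD4 Treg-treated libraries, JL027-1 has the lowest mean (1608) and lies beside the allogeneic libraries for Foxm1 (852) and Bub1b (2772).

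In CD8 cells Treg treatment gave no called member in either direction by limma. At an unadjusted p below 0.05 there were 13, where 11.1% of all genes were, and 38 of 53 had a positive change, where 49.5% of all genes had one. Of all genes 0.0657% were called, 0.0478% higher and 0.0179% lower, so few changes of any kind passed the test. The medians were 0.26 over members and -0.01 over all genes. Ccne2 had the lowest p, at 831, 915, 1512 and 1204 in allogeneic and 1544, 1866, 2362 and 2519 in treated libraries (0.91 ± 0.21, limma adjusted p = 0.0823). Those groups did not overlap. Mki67 (10787, 6266, 12965 and 9711 in treated libraries), Top2a (15683, 17080.2, 18150.3 and 15888) and Ccnb1 (9766, 12321, 13277 and 16449) overlapped the allogeneic values. Ccnd2 read 1813, 3839, 2369 and 2823 (0.51 ± 0.26, limma adjusted p = 0.455), Ccnd3 8678, 5089, 8134 and 8600.0 and Cdk4 7814, 11677, 9326 and 11231. Cdk1 read 6535, 14476, 7639.5 and 10559 and Pcna 13964, 29060.0, 16404 and 22214, each highest in JL019-2, where Foxm1 and E2f1 were lowest. The remaining treated values were 1804, 1663, 1752 and 1842 for Cdk6, 1315, 599, 1225 and 1337 for E2f1 and 1320.4, 449, 1934 and 707 for E2f2. For the inhibitors they were 563, 973, 493 and 445 for Cdkn1a, 925, 1846, 581 and 751 for Cdkn1b and 832, 808, 907 and 1005 for Cdkn2c. None of these 6 was called. The count was 1 without CD8 allogeneic JL027-1 and also 1 without treated JL019-1. The myeloid sum was 11831 to 31872 in CD8 treated and 6625 to 10739 in CD8 allogeneic libraries, with 0 of 10 markers called by limma and 1 at an unadjusted p below 0.05.
A direct test of the treatment effects in CD8 against CD4 also called 0 members by limma, with 1 at an unadjusted p below 0.05 (2.57% of all genes), while 0.00597% of all genes were called, 0% higher and 0.00597% lower. Ccnd2 had the lowest p, with a difference of -0.77 ± 0.37 (limma adjusted p = 0.898). With array weights 14 members were called higher and 3 lower. The shares of all genes just given belong to the main fit, so this count is not read as a result about the members.

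After transplantation CD8 and CD4 cells were compared arm by arm. In syngeneic recipients 1 member was higher in CD8 and 1 lower, against 12% of all genes called, 4.98% higher and 6.98% lower, with medians of -0.23 and -0.05. Cdk4 was the higher, at 14762, 11158 and 18388 in CD8 and 6907, 10843 and 6067 in CD4 (0.91 ± 0.22, limma adjusted p = 0.00563), and Cdkn1a the lower, at 128, 56.6 and 119.9 in CD8 and 361, 1452 and 309 in CD4 (-2.50 ± 0.56, limma adjusted p = 0.00328). Both groups stayed apart for each gene, though for Cdk4 only narrowly, with 11158 in CD8 JL019-2 against 10843 in CD4 JL019-2. Without CD4 syngeneic JL019-2 the counts were 1 higher and 2 lower, without CD8 syngeneic JL027 1 member was called, and with quantile normalisation 1 was higher and 3 lower. The Cdk4 call ended without CD8 syngeneic JL027 (0.74, limma adjusted p = 0.0544), and with the compared groups alone neither Cdk4 (0.91, limma adjusted p = 0.251) nor Cdkn1a (-2.50, limma adjusted p = 0.13) was called. Of 10 myeloid markers 4 were called lower in CD8 and 0 higher, and their part in this comparison was not tested.
In allogeneic recipients 26 members were higher in CD8 and 0 lower, against 6.15% of all genes called, 3.05% higher and 3.09% lower, with medians of 0.77 and -0.03. Cdc45, a subunit of the replicative helicase, read 1381, 1255, 1805 and 1724 in CD4 and 2779, 3261, 4413 and 3687 in CD8 (1.19 ± 0.20, limma adjusted p = 0.000208). Ccna2 was higher by 1.02 ± 0.19 (limma adjusted p = 0.000981), Top2a by 0.92 ± 0.16 (limma adjusted p = 0.000558) and Cdk1 by 1.01 ± 0.26 (limma adjusted p = 0.0158). The count was 12 without CD4 allogeneic JL019-2 and 15 without CD4 allogeneic JL019-1 or CD8 allogeneic JL027-1. The Cdk1 call ended without CD4 allogeneic JL019-2 (0.90, limma adjusted p = 0.0746) or CD8 allogeneic JL027-1 (0.86, limma adjusted p = 0.0758).
In Treg-treated recipients 33 were higher in CD8 and 1 lower, against 9.61% of all genes called, 4.9% higher and 4.71% lower, with medians of 0.88 and -0.03. Tpx2 read 2332, 2591, 4555 and 2957 in CD4 and 7089, 5062, 7827 and 8471 in CD8 (1.22 ± 0.19, limma adjusted p = 9.19e-05), without overlap. Mki67 was higher by 1.21 ± 0.24 (limma adjusted p = 0.00124) and Kif20a, a kinesin of cytokinesis, by 1.60 ± 0.34 (limma adjusted p = 0.00238). Ccnd2 was the lower member (-1.48 ± 0.26, limma adjusted p = 0.000284). With the compared groups alone 15 members were called, and the calls of Mki67 (1.21, limma adjusted p = 0.0529) and Kif20a (1.60, limma adjusted p = 0.0894) ended. The myeloid sum was 23763 to 86926 in CD4 and 11831 to 31872 in CD8 treated libraries, and that of 8 erythroid markers 4224 to 38249.6 and 3129.9 to 13248. Their part in this comparison was not tested.

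Treg cells recovered from Treg-treated recipients were compared with Treg cells at day 0. Of 53 members 44 were higher and 0 lower, against 13.3% of all genes called, 8.43% higher and 4.89% lower, with medians of 1.89 and -0.07. Prc1 rose from 615 and 566 to 3215, 3676 and 2754 (2.43 ± 0.21, limma adjusted p = 6.71e-09). Mki67 rose from 902 and 872 to 3855, 5162 and 4344 (2.32 ± 0.31, limma adjusted p = 5.52e-06) and Top2a from 2013 and 1854 to 5960.1, 7076 and 6337 (1.74 ± 0.21, limma adjusted p = 1.06e-06). Every recovered library was above every day 0 library for these genes. Cdk1 rose from 339.9 and 448 to 1968, 2605 and 2089 (2.50 ± 0.34, limma adjusted p = 4.91e-06) and Ccnb1 from 491 and 729 to 3464, 4058 and 3870.1 (2.66 ± 0.26, limma adjusted p = 2.71e-08). E2f1 rose from 111 and 102 to 464, 383 and 466 (2.02 ± 0.30, limma adjusted p = 2.04e-05) and Cdk6 from 785 and 971 to 2228, 1875 and 1907 (1.19 ± 0.27, limma adjusted p = 0.00321). Cdkn1a rose from 88.1 and 229 to 1774, 1615 and 1365 (3.46 ± 0.63, limma adjusted p = 0.000279) and Cdkn2c from 277 and 348 to 938, 791 and 727 (1.39 ± 0.25, limma adjusted p = 0.000246). The D cyclins and Cdk4 did not follow. Ccnd2 was at 8289 and 6691 and then 7399, 7996 and 8635 (0.10 ± 0.33, limma adjusted p = 0.893), Ccnd3 at 4992 and 5243 and then 5595, 4901 and 6413, and Cdk4 at 2996 and 3485 and then 4093, 3938 and 3350.5. Pcna (5607 and 7081, then 7253, 8056 and 6652), E2f2 (742 and 942, then 506, 349 and 770.4) and Cdkn1b (2274 and 2278, then 2212, 2391 and 1655) were not called either. The Cdk6 call ended without Treg day 0 JL019 (1.04, limma adjusted p = 0.0818). Of 8 erythroid markers 4 were called higher in recovered Treg libraries, and their part in these changes was not tested.

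Against CD4 cells of the same Treg-treated arm, recovered Treg cells were lower for 27 members and higher for 0, where 30% of all genes were called, 16.1% lower and 13.9% higher, and the medians were -0.53 over members and 0.14 over all genes. Lower members came from every role group: 9 of 12 G2 to M genes, 4 of 5 DNA synthesis genes, 4 of 4 centromere genes, 3 each of the G1 to S, checkpoint and spindle groups, and Cdkn3. Ccne1 had the lowest p, at 1780.2, 2033, 2211 and 1948 in CD4 and 810.0, 736 and 796 in Treg (-1.35 ± 0.16, limma adjusted p = 1.18e-06). Tyms read 2692, 2932 and 2823 in Treg, below the CD4 values given above (-1.71 ± 0.28, limma adjusted p = 7.13e-05). Ube2c read 1922, 2763 and 2558 (-1.70 ± 0.33, limma adjusted p = 0.000506) and Cdk1 1968, 2605 and 2089 (-1.47 ± 0.28, limma adjusted p = 0.000414). Mki67 did not follow them, with overlapping values and a change of 0.09 ± 0.26 (limma adjusted p = 0.809). Cdkn1a (-0.07 ± 0.53, limma adjusted p = 0.928) and Cdkn1b (0.32 ± 0.33, limma adjusted p = 0.477) were not called. The myeloid sum was 1882 to 7207 in the Treg and 23763 to 86926 in the CD4 libraries, and its part in this comparison was not tested.

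Lists of further genes of the pathway were read beside the members. The shares of all genes called in each comparison are those given with the members. Of 20 condensin, kinetochore and further kinesin genes, 19 were higher and 0 lower in CD4 syngeneic cells against day 0, and 16 higher and 0 lower in CD8. Between allogeneic and syngeneic arms 14 were higher and 0 lower in CD8, led by Kif22 (0.99 ± 0.17, limma adjusted p = 5.68e-05) and Ndc80 (1.15 ± 0.20, limma adjusted p = 8.78e-05), a chromokinesin and a kinetochore subunit. In CD4 0 were higher and 2 lower, Smc4 (-0.88 ± 0.20, limma adjusted p = 0.00232), a condensin subunit, and the kinesin Kif15 (-0.66 ± 0.19, limma adjusted p = 0.0202), a share below the 14.6% of all genes. The Kif15 call ended without CD4 syngeneic JL019-2 (-0.46, limma adjusted p = 0.185) and without CD4 allogeneic JL019-1 (-0.59, limma adjusted p = 0.0685) or JL019-2 (-0.62, limma adjusted p = 0.0537), with the compared groups alone (-0.66, limma adjusted p = 0.127) and with median centring (-0.55, limma adjusted p = 0.124). Treg treatment of CD4 gave 5 higher and 3 lower, with Smc4 up by 0.77 ± 0.18 (limma adjusted p = 0.011) and Espl1, the separase of sister chromatids, down by 1.91 ± 0.51 (limma adjusted p = 0.0157). The Espl1 call ended without treated JL019-1, JL019-2 or JL027-2 (-1.84 to -1.57, limma adjusted p 0.0528 to 0.0662) and with the library mean in the model (limma adjusted p = 0.11). A list of 23 genes held RB, DREAM and E2F factors and also the cell cycle regulators Ccnd1, Skp2, Cks1b, Cks2, Fbxo5, Fzr1, Wee1 and Pkmyt1. Of these 23, 6 were higher and 0 lower in CD8 allogeneic against syngeneic cells, beside 21.1% of all genes called in either direction, and they included Mybl2, which encodes B-Myb (1.50 ± 0.36, limma adjusted p = 0.00266), and Rbl2, which encodes the pocket protein p130 of DREAM (1.98 ± 0.49, limma adjusted p = 0.0038). In CD4 allogeneic cells 1 of these was lower and 0 higher. Of 12 genes associated with quiescence, 1 was higher and 5 lower in CD8 allogeneic against syngeneic cells, with Foxp1 down by 1.26 ± 0.18 (limma adjusted p = 5.43e-06) and Ccng2 up by 1.29 ± 0.17 (limma adjusted p = 2.19e-06). In recovered Treg cells against day 0, 4 of them were lower and 0 higher, led by Foxp1 (-2.26 ± 0.21, limma adjusted p = 1.91e-08). Of 11 p53 targets beside Cdkn1a, CD8 allogeneic cells had 1 higher and 2 lower than syngeneic, with Sesn1 at -1.82 ± 0.28 (limma adjusted p = 2.33e-05) and Sesn2 at 1.30 ± 0.45 (limma adjusted p = 0.0376), beside 21.1% of all genes called. The Sesn2 call ended without CD8 syngeneic JL019-1 or JL027 or without CD8 allogeneic JL019-1, JL019-2 or JL027-2 (1.03 to 1.45, limma adjusted p 0.0545 to 0.202) and with the compared groups alone (1.30, limma adjusted p = 0.0679). In CD4 they had 1 higher, Bbc3 (2.22 ± 0.44, limma adjusted p = 0.000641), which encodes the proapoptotic PUMA, and 1 lower, Gadd45a (-1.93 ± 0.65, limma adjusted p = 0.0445), beside 14.6% of all genes called, so both p53 counts were near the background. Gadd45a read 411, 6517 and 185 in CD4 syngeneic libraries, and without JL019-2, the library of the highest value, the change was -0.41, limma adjusted p = 0.659. That call also ended with array weights (-0.48, limma adjusted p = 0.364), the compared groups alone (-1.93, limma adjusted p = 0.319), quantile normalisation (-1.86, limma adjusted p = 0.0651), median centring (-1.82, limma adjusted p = 0.0593) and without any 1 of the allogeneic libraries (over all 5 libraries -2.02 to -0.41, limma adjusted p 0.0649 to 0.659). A list of 10 genes of chromatin and its replication held the histone variants H2az1 and H2ax, the assembly factors Asf1b, Chaf1a and Chaf1b, the DNA methylation genes Dnmt1 and Uhrf1, and Hmgb2, Hells and the dUTPase gene Dut. Of these 10, 9 were higher in CD4 syngeneic and 8 in CD8 syngeneic cells than at day 0, and 0 were called by limma between the allogeneic and syngeneic arms of either cell type.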

How the data were processed

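Total RNA was extracted with TRizol and RNeasy MinElute columns, SMARTer v4 reagents gave full-length cDNA and Nextera XT the libraries, per the labels' protocols. The submitters' processing notes name FastQC 0.11.7, kallisto, DESeq2 and the GRCm38/mm10 build, without roles or order. The deposited values are a signal in the form of read counts that the authors scaled between libraries, so edgeR on counts was not used, and depth per library is not known from the files. Whole reads could not be recovered from them. Values were tested as log2(value + 1) with limma 3.58.1 (R 4.3.3), with trend and robust options, in a group-means model over 31 libraries and 10 groups, with Benjamini-Hochberg adjustment over 16741 genes for each of 17 comparisons. No gene fell under the filter of a mean of 1. The procedure was tested on simulated data first. CD4 and CD8 libraries with the same allogeneic recipient label deviated together in all 4 pairs (correlation 0.135 to 0.416), so recipient may pair them, and a recipient block called 31 members between them against 26 without it. All 53 members could be named. Values in each library were given for 14 members, for the member of lowest p per comparison and, of each role group, for some of the called members of lowest p (at most 2 per direction). Other genes were named by lowest p, at most 2 per list and direction, apart from Foxm1, Cdc25a, Kif20a and Ube2c, each in 1 comparison, which were chosen after their values were seen. The members and lists were chosen with earlier results of these data known. Alternatives covered the filter, pseudocount, normalisation, library mean, array weights, blocks, left-out libraries and single title prefixes, the last chosen after seeing the data. The 2 T-cell receptor tables were not used. Promoter windows came from RefSeq.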

Additional observations from a re-analysis of the deposited data

Results flagged for a closer look

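Within groups of 4 libraries, 60 checks for a single library far from its neighbours were made on the 14 members listed by library and on the median over members, and 7 were positive, where chance gives about 1 in 20. In CD4 allogeneic JL027-1 Ccnd3 was 5234, against 6561 to 6629 in the other 3 libraries, and Cdk6 was 863, against 1131 to 1165. In CD4 Treg-treated JL027-2 E2f1 was 526, against 655 to 673. In CD8 allogeneic JL027-1 Ccnb1 was 16180.4, against 9134 to 10336. The median over members in CD8 allogeneic JL019-1 was 3.83 on the log2 scale, against 4.11 to 4.16. In CD8 Treg-treated JL019-2 Ccnd3 was 5089, against 8134 to 8678, and E2f1 was 599, against 1225 to 1337. That library also had the highest mean value over all genes, 2385.

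The signed change from syngeneic to allogeneic recipients was more positive in CD8 than in CD4 cells for 18 members by the limma test of the difference itself, among them Mki67 (by 1.45 on the log2 scale), Top2a (1.10, with -0.65 in CD4 and 0.45 in CD8) and Ccnb1 (1.34). The count was 6 with median centring, 10 with the compared groups alone and 0 within either title prefix.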

How the results depend on the processing

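Across all comparisons 362 counts of called members were recomputed, and 70 differed from the main count by more than 1.5 times. Shares of all genes called are given for the main fit only, so counts under alternatives are not read as results about the members. For members called in the main fit, no direction reversed among 8843 values under alternatives, of which 985 were no longer called. Members not called in the main fit were left out of this check, so it does not cover their directions. Of the medians over members, that of CD4 allogeneic against syngeneic (-0.11) was 0.0046 with median centring, -0.20 with quantile normalisation, -0.0441 with array weights, -0.0675 and -0.16 without CD4 syngeneic JL019-2 and JL027, and -0.26 and -0.0054 within JL019 and JL027. That of CD4 Treg-treated against allogeneic (0.18) was 0.11 with quantile normalisation, 0.38 with median centring, 0.10 with the library mean, 0.0962 with array weights, 0.0881 without CD4 allogeneic JL019-2, and 0.31 and 0.0939 within JL019 and JL027. That of CD8 against CD4 syngeneic (-0.23) was -0.40 with quantile normalisation, -0.0288 with median centring, -0.15 with the library mean, -0.0063 with array weights, -0.15 without CD8 syngeneic JL027 and -0.15 within JL019. That of Treg against CD4 at day 0 (0.52) was 0.33 without Treg day 0 JL027 and 0.27 within JL019, and that of the difference of treatment effects (0.0804) was -0.0097 with quantile normalisation, -0.0349 with median centring, 0.23 with array weights, 0.019 to 0.17 without 1 library other than CD8 Treg-treated JL027-2, -0.0014 without CD8 Treg-treated JL027-2 and -0.0216 within JL019. Analyses within 1 title prefix keep few libraries per group, so fewer calls follow from their construction. The cause of the other shifts was not tested. Within prefixes JL019 and JL027 the counts were 23 and 15 for CD8 syngeneic against day 0, 3 and 1 for CD4 allogeneic against syngeneic, 10 and 21 for the same in CD8, 0 and 0 for CD4 Treg-treated against allogeneic, 27 (JL027) for recovered Treg against day 0, 0 and 1 for Treg against CD4 at day 0, 14 and 0 after treatment, 5 and 11 for CD8 against CD4 at day 0, 1 and 0 in syngeneic, 0 and 0 in allogeneic, 4 and 0 in treated recipients, and 0 and 0 for the difference of allogeneic responses. For CD4 allogeneic against syngeneic the count was 3 with the compared groups alone, 17 with quantile normalisation, 18 with the library mean, 18 with array weights and 4 with a log2 change of at least 1. For CD4 Treg-treated against allogeneic it was 6 with the library mean, 35 with array weights and 8 with the log2 minimum. For CD8 Treg-treated against allogeneic it was 1 with the prefix as replicate block and 4 with array weights. For Treg against CD4 at day 0 it was 19 with the library mean and 26 with array weights, and after treatment 15 with the log2 minimum. For CD8 against CD4 in syngeneic recipients it was 0 with the compared groups alone, 4 with quantile normalisation, 8 with the library mean, 15 with array weights and 1 with the log2 minimum. In allogeneic recipients it was 42, 42, 44 and 4 with the compared groups alone, the library mean, array weights and the log2 minimum. In treated recipients it was 15 with the compared groups alone and 20 with the log2 minimum. For the difference of allogeneic responses it was 10 with the compared groups alone, 6 with median centring, 32 with the library mean and 35 with array weights, and for that of treatment effects 17 with array weights. Median centring moved the median of all genes by -0.22 to 0.20 (log2).

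Leaving out 1 library at a time gave 44 to 48 calls for CD4 syngeneic against day 0, 32 to 39 for CD8, 5 to 9 for CD4 allogeneic against syngeneic (5 without CD4 allogeneic JL019-1), 29 to 35 for CD8, 45 to 47 and 45 to 49 for allogeneic against day 0, 3 to 25 for CD4 Treg-treated against allogeneic, 0 to 1 for CD8, 36 to 43 for recovered Treg, 2 to 5 and 22 to 26 for Treg against CD4 at day 0 and after treatment, 22 to 27 for CD8 against CD4 at day 0, 1 to 3 in syngeneic, 12 to 26 in allogeneic and 29 to 38 in treated recipients, 13 to 19 for the difference of allogeneic responses and 0 to 0 for that of treatment effects. A lone library left in an arm is assumed to vary like the other groups. Replicate numbers did not pair libraries across arms: deviations of libraries that share a label in other recipients correlated by -0.167 to 0.184 (8 pairs). Those of cell types with 1 recipient label correlated by -0.114 to 0.428 (15 pairs), and those sharing a prefix at day 0 by -0.319 to 0.442 (6 pairs, which mirror each other with 2 libraries a group). Treating label or recipient as a block (consensus correlation 0.0422 and 0.145) moved no count by more than 1.5 times. Reads were not recovered, so the depth behind low values such as Cdc25c and Cdkn1a at day 0 is unknown.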
